A study of Mus musculus with 16 samples.

Results

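The heart muscle cell takes up long-chain fatty acids from the blood, activates them to acyl-CoA esters, carries them as carnitine esters into the mitochondrion and shortens them there by beta-oxidation, a repeated cycle of dehydrogenation, hydration, a second dehydrogenation and thiolysis. The electrons reach the respiratory chain through the electron-transferring flavoprotein, and the acetyl-CoA enters the tricarboxylic acid cycle. In the healthy adult ventricle this is the main fuel, and many of its genes are targets of the nuclear receptors PPAR-alpha and the estrogen-related receptors with their coactivator PGC-1. Here 39 genes of this pathway were followed, from uptake to the uncoupling proteins. They were chosen by name, with earlier results of these data known. Every one of them was on the array, and each was represented by its brightest probe. They make up 39 of 15658 genes tested and 39 of 27670 genes on the array.

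Left ventricular RNA of 16 mice was hybridised to single-colour arrays, 1 mouse to an array. NOS3-TG mice carried nitric oxide synthase 3 under the alpha-MHC promoter, which is active in cardiomyocytes, in addition to their own Nos3 gene, and WT mice were their littermates, all on a C57BL/6 N background. The groups were NOS3-TG mice 10 weeks after transverse aortic constriction (TAC, in which a ligature around the aortic arch loads the ventricle), WT mice 10 weeks after TAC, intact NOS3-TG mice and intact WT mice (baseline), with 4 arrays each from 2 males and 2 females. The controls were intact, so surgery and load cannot be told apart, and the sources used here do not say whether the transgenic mice come from more than 1 founder.

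Levels below are log2 processed signals relative to the 75th percentile of their array, so they compare a gene between arrays and not different genes with each other. A change is called at an adjusted p under 0.05 (limma, Benjamini-Hochberg over 15658 genes), and changes are given on the log2 scale with the SE from that fit, 4 arrays per group. The transgene was seen in the labelled mice: Nos3 lay between 6.94 and 8.02 on the NOS3-TG arrays and between 0.96 and 1.85 on the WT arrays. All 12 cardiomyocyte markers were well above background on every array. A median of 52.5% of probes exceeded background clearly, and the extreme arrays were at 46.2% (replicate 3) and 68.0% (replicate 4) in NOS3-TG TAC, and 44.5% (replicate 2) in NOS3-TG baseline. Baseline arrays were on slides 1 and 4 and TAC arrays on slides 2 and 3, so TAC and slide cannot be told apart. A random slide effect allows for likeness of arrays within a slide, but it does not separate the 2. Only slide 3 was scanned on day 2, and all other slides on day 1. Scan day as a block therefore sets slide 3 against slide 2 within TAC and is no batch check apart from slide.

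After TAC most of the pathway from the carnitine shuttle to the peroxisomal genes was lower in WT hearts. Fewer genes fell at its ends: 1 of 5 of uptake and binding, 2 of 5 acyl-CoA synthetases, and 1 of 3 among the uncoupling proteins and Pdk4. Of the 39 genes, 28 fell and 1, Acsl5, rose, where 17.6% of all tested genes were called lower and 10.9% higher. In NOS3-TG hearts 11 of the 39 fell and none rose, where 5.36% of all tested genes were called lower and 6.48% higher. All 11 were among the 28 that fell in WT. At an unadjusted p under 0.05 limma gave 26 members in NOS3-TG, against 27.8% of all tested genes, and 32 in WT, against 40.3%. The groups did not overlap for 10 lower members in NOS3-TG, against 7.45% of all tested genes, and for 30 lower and 1 higher members in WT, against 17.3% and 10.2%. The median change of the 39 genes was -0.37 in NOS3-TG hearts, against -0.00104 over all tested genes, and -0.63 in WT hearts, against -0.06 over all tested genes. In bulk tissue, fewer cells of a type and less RNA per cell cannot be told apart.

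**Figure D1:**
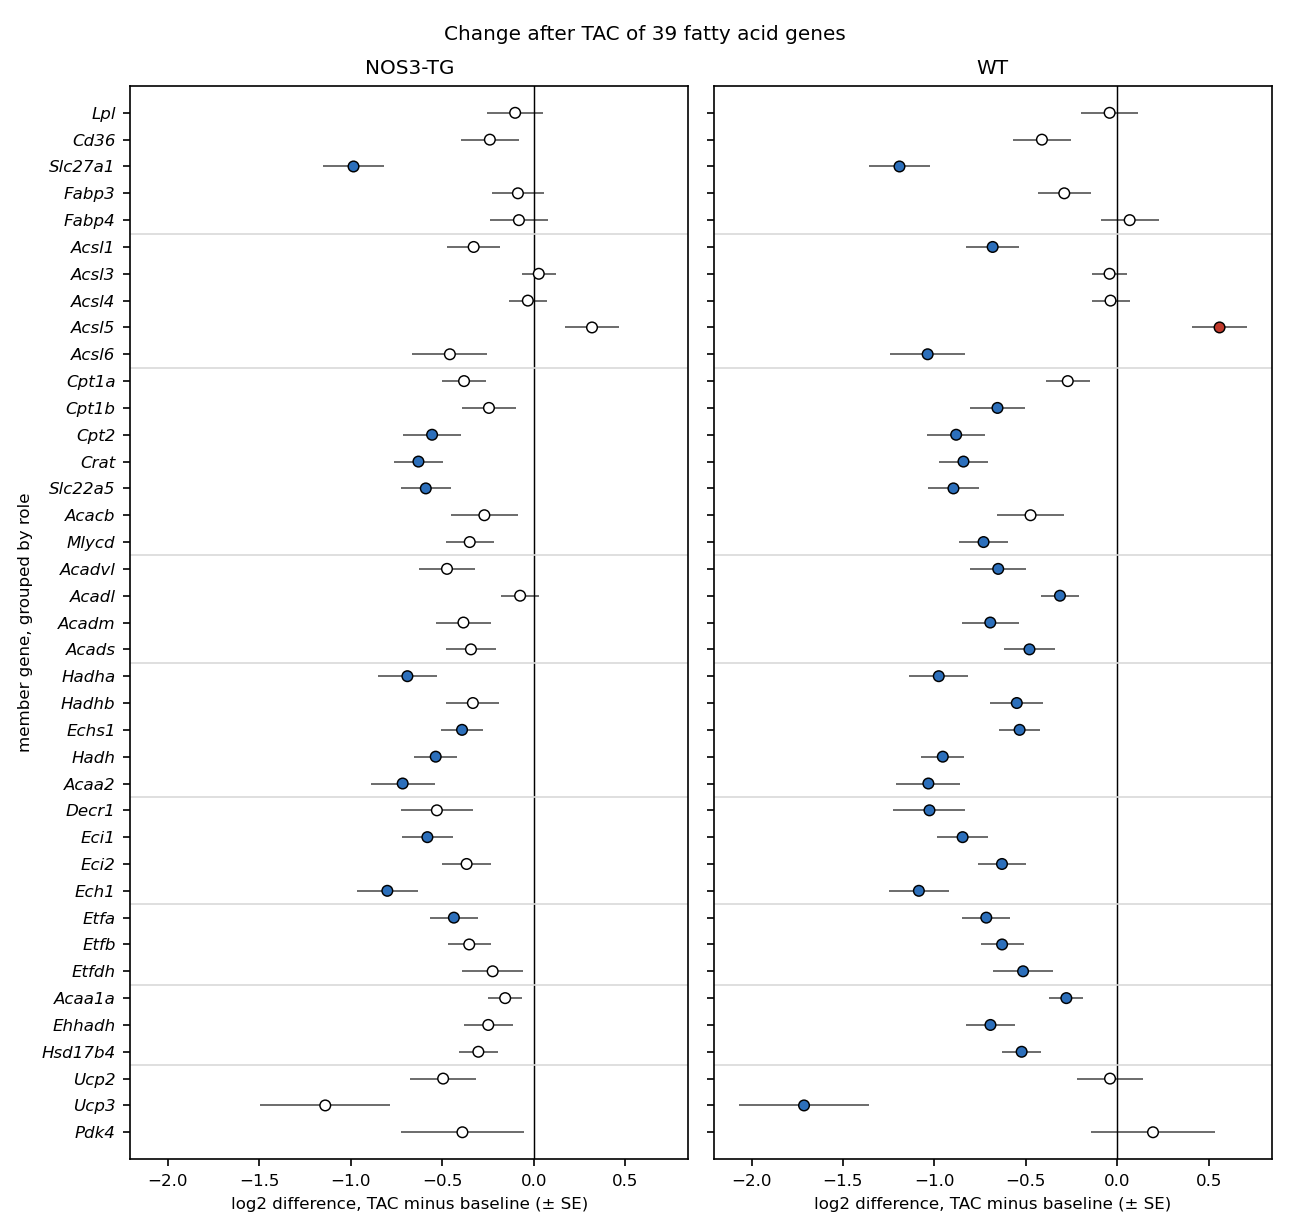
Log2 difference between TAC and baseline (horizontal axis, points with SE bars from limma) of the 39 genes (vertical axis, grouped by role with grey lines between groups), in NOS3-TG hearts on the left and WT hearts on the right. Blue points were called lower, the red point higher and white points were not called. All dehydrogenases, all genes of the later beta-oxidation steps and all peroxisomal genes are blue in WT, whereas in NOS3-TG the 11 blue points lie between -0.99 and -0.39.

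Of the 5 genes of uptake and binding, 1 passed the test. Slc27a1, the fatty acid transport protein FATP1, had levels of 1.93, 2.18, 2.25 and 1.92 on the NOS3-TG TAC arrays, against 3.05, 2.78, 3.23 and 3.16 on the NOS3-TG baseline arrays. It had 2.42, 2.12, 2.18 and 1.64 on the WT TAC arrays, against 3.00, 3.36, 3.21 and 3.54 on the WT baseline arrays. Every TAC array was lower than every baseline array of either genotype. The gene fell by 0.99 ± 0.17 in NOS3-TG hearts (limma adjusted p = 0.00327) and by 1.19 ± 0.17 in WT hearts (limma adjusted p = 0.000472), and it was the only 1 of the 11 called in NOS3-TG that stayed called under every alternative processing and with any single array left out.

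The remaining genes of uptake and binding did not pass the test in either genotype. Cd36, the fatty acid translocase of the plasma membrane, had levels of 5.35, 5.27, 5.12 and 4.98 on the WT TAC arrays, against 5.56, 5.54, 5.56 and 5.71 on the WT baseline arrays. These WT groups did not overlap, but the change of -0.41 ± 0.16 missed the threshold (limma adjusted p = 0.0682), and the NOS3-TG groups overlapped. Fabp3, the heart-type fatty acid binding protein of the cytosol, differed by -0.09 in NOS3-TG and -0.29 in WT. Lpl, the lipoprotein lipase that frees fatty acids from triglyceride in the vessel, differed by -0.10 (95% interval -0.44 to 0.23) in NOS3-TG and -0.04 (95% interval -0.38 to 0.29) in WT, and Fabp4, a binding protein of fat cells and vessel lining, by -0.08 in NOS3-TG and 0.07 in WT.

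Other cells of the tissue also express several of these uptake genes, and marker lists of the cell types were followed beside them, read against the shares of all tested genes called lower and higher in each genotype. The summed level of 10 endothelial markers (linear signal relative to the 75th percentile) was 62.6 to 77.7 on the NOS3-TG TAC arrays, against 46.4 to 64.2 on the NOS3-TG baseline arrays. It was 71.3 to 87.9 on the WT TAC arrays, against 63.4 to 67.1 on the WT baseline arrays, and 1 of the 10 genes rose in NOS3-TG and 4 in WT, where 6.48% of all tested genes rose in NOS3-TG and 10.9% in WT. The sum of 9 adipocyte markers was 0.590 to 3.97 on the NOS3-TG TAC arrays, against 0.313 to 6.15 on the NOS3-TG baseline arrays, and 0.486 to 1.20 on the WT TAC arrays, against 0.769 to 8.64 on the WT baseline arrays. Of these 9, 6 were tested and none fell in NOS3-TG and 3 in WT, where 5.36% of all tested genes fell in NOS3-TG and 17.6% in WT, while Lep, Adrb3 and Ucp1 were well above background on no array. The sum of 12 cardiomyocyte markers was 2422 to 2986 on the NOS3-TG TAC arrays, against 2608 to 3401 on the NOS3-TG baseline arrays, and 2459 to 3163 on the WT TAC arrays, against 2820 to 3486 on the WT baseline arrays. Of these 12 genes, none fell in NOS3-TG and 2, Ckm and Ryr2, in WT, a share close to that of all tested genes. Without a test, the change was below 0 for 10 of the 12 in NOS3-TG and 11 in WT, against 50.2% and 57.1% of all tested genes. The median change of the 12 was -0.10 in NOS3-TG, against -0.00104 over all tested genes, and -0.25 in WT, against -0.06.

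The sum of 8 macrophage markers was 97.6 to 113 on the NOS3-TG TAC arrays, against 84.6 to 102 on the NOS3-TG baseline arrays, and 81.2 to 104 on the WT TAC arrays, against 60.1 to 75.1 on the WT baseline arrays, so the WT groups did not overlap. Of these 8 genes, 1 rose in NOS3-TG and 5 in WT. Of 8 fibroblast markers 1 rose in NOS3-TG and 3 in WT. Their sums were 174 to 265 on the NOS3-TG TAC arrays, against 159 to 222 on the NOS3-TG baseline arrays. They were 180 to 276 on the WT TAC arrays, against 147 to 233 on the WT baseline arrays. The brightest gene in every group weighs most in a linear sum, Dcn in the fibroblast list and Lyz2 in the macrophage list. Mean log2 levels of Dcn after TAC and at baseline were 6.74 and 6.85 in NOS3-TG, and 6.64 and 6.88 in WT. Those of Lyz2 were 6.36 and 6.23 in NOS3-TG, and 6.22 and 5.74 in WT. Of 6 smooth muscle markers 3 fell and 1 rose in NOS3-TG, and 2 fell and 1 rose in WT. Their sum was 112 to 139 on the NOS3-TG TAC arrays, against 62.6 to 78.0 on the NOS3-TG baseline arrays, and 91.1 to 138 on the WT TAC arrays, against 74.0 to 110.5 on the WT baseline arrays. The gene that rose was Acta2 in both genotypes, the brightest of the 6 in every group, so it weighs most in this linear sum. Its mean log2 levels after TAC and at baseline were 6.7 and 5.4 in NOS3-TG, and 6.4 and 5.53 in WT. The change was below 0 for 5 of the 6 in each genotype, so the sum does not stand for the list. The part of these cell types in the results was not tested.

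The acyl-CoA synthetases, which trap a fatty acid in the cell as its CoA ester, moved in different directions. Acsl1, the main long-chain isoform of heart, fell by 0.68 ± 0.15 in WT hearts (limma adjusted p = 0.00478). Its levels were 6.38, 6.94, 6.81 and 6.84 on the NOS3-TG TAC arrays and 6.73, 6.84, 6.59 and 6.19 on the WT TAC arrays, against 7.02, 6.93, 7.25 and 7.08 on the NOS3-TG baseline arrays and 7.16, 7.29, 7.31 and 7.33 on the WT baseline arrays. The WT groups did not overlap and the NOS3-TG groups overlapped by a narrow margin, where the change was -0.33 ± 0.15 (limma adjusted p = 0.163). Acsl1 was measured by 2 further probes, which gave -0.45 ± 0.12 and -0.39 ± 0.13 in NOS3-TG and -0.81 ± 0.12 and -0.73 ± 0.13 in WT. These falls were larger than that of the probe used, in both genotypes.

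Acsl6, an isoform best known from brain and red blood cells, fell by 1.04 ± 0.20 in WT hearts (limma adjusted p = 0.00308). Its levels were -0.48, -0.24, -0.61 and -0.01 on the NOS3-TG TAC arrays, against 0.27, -0.06, 0.39 and -0.12 on the NOS3-TG baseline arrays, and -1.10, -0.49, -0.72 and -1.29 on the WT TAC arrays, against 0.43, -0.21, 0.41 and -0.08 on the WT baseline arrays. The WT groups were apart and the NOS3-TG groups overlapped, with a change of -0.46 ± 0.20 (limma adjusted p = 0.164). The 3 other probes of Acsl6 gave -0.24 ± 0.41, -0.96 ± 0.31 and -1.0 ± 0.26 in NOS3-TG, against -1.24 ± 0.39, -2.25 ± 0.31 and -1.87 ± 0.26 in WT, so the size in both genotypes depended on the probe.

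Acsl5, an isoform of the mitochondrial outer membrane and endoplasmic reticulum, was the only member called higher. It had levels of 0.90, 0.31, 0.63 and 0.66 on the NOS3-TG TAC arrays, against 0.31, 0.12, 0.43 and 0.37 on the NOS3-TG baseline arrays, and 0.66, 0.53, 0.73 and 1.21 on the WT TAC arrays, against 0.18, 0.26, 0.14 and 0.32 on the WT baseline arrays. The WT groups did not overlap, and WT TAC replicate 4, the highest of them, is also the array with the lowest levels of most other members. The rise was 0.56 ± 0.15 in WT (limma adjusted p = 0.0137) and was no longer called with scan day as a block (adjusted p = 0.0659). In NOS3-TG the difference was 0.32 ± 0.15 (limma adjusted p = 0.179). Acsl3 and Acsl4, isoforms of lipid droplets and of arachidonic acid activation, differed by 0.03 and -0.03 in NOS3-TG, and both by -0.04 in WT.

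**Figure D2:**
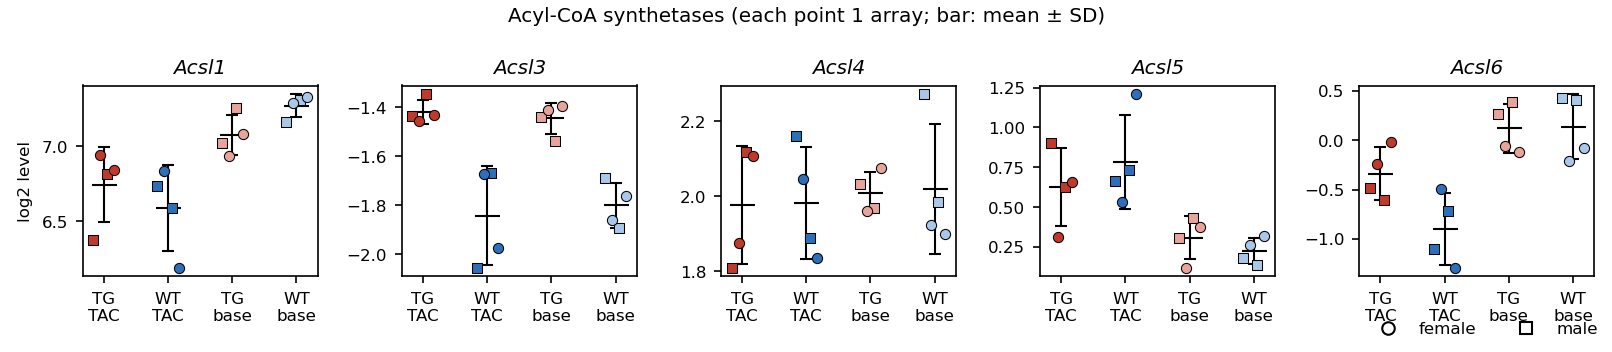
Log2 level relative to the 75th percentile of the array (vertical axes) of the 5 acyl-CoA synthetases on each array of the 4 groups (horizontal axes), circles for females and squares for males, with the mean and SD as bars. Acsl1 and Acsl6 are lower and Acsl5 higher on the WT TAC arrays than on the WT baseline arrays without overlap, and Acsl3 is higher on all NOS3-TG arrays than on all WT arrays.

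The promoters of the members were searched because the family of their known regulators binds a common element: PPAR with its partner RXR at 2 copies of AGGTCA spaced by 1 base, and estrogen-related receptors at TNAAGGTCA. RefSeq promoters (250 bases before to 50 after the start, GRCm38.p6) were at hand for 32 of the 39 genes, and both strands were searched. The spaced pair was in 0 of the 32, against 0.0481% of all genes with a promoter, and a looser form with AGGNCA for each copy was in 0 of the 32, against 0.451%. TNAAGGTCA was in 1 of the 32, Acsl6, or 3.12%, against 1.43% of all genes. AGGTCA, which is part of the longer motifs, was in 8 of the 32, or 25%, against 18.1% of all genes. A match is a run of letters and says nothing of binding, and elements outside this window were not searched.

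The Acsl6 stretch is shown because it holds the only match of the longer estrogen-related receptor motif. It is the 250 bases before the start, chr11:54303574-54303823 on the plus strand, with capitals on the matches, both of which read on the opposite strand; the second also carries the TNAAGGTCA match.
Acsl6: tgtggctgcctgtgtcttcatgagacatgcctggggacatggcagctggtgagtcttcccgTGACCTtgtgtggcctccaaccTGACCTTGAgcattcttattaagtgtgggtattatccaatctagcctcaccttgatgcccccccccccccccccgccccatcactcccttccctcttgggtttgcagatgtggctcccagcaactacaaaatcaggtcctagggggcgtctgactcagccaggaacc

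Of 7 genes of the carnitine shuttle and of malonyl-CoA, which govern transfer into the mitochondrion, 3 fell in NOS3-TG and 5 in WT. Slc22a5, the carnitine transporter OCTN2 of the plasma membrane, had levels of -0.19, 0.22, -0.01 and -0.07 on the NOS3-TG TAC arrays, against 0.44, 0.36, 0.82 and 0.69 on the NOS3-TG baseline arrays, and -0.27, 0.12, -0.33 and -0.37 on the WT TAC arrays, against 0.49, 0.75, 0.54 and 0.96 on the WT baseline arrays. All TAC arrays lay below all baseline arrays. It fell by 0.59 ± 0.14 in NOS3-TG (limma adjusted p = 0.0169) and by 0.90 ± 0.14 in WT (limma adjusted p = 0.000762).

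Of the 3 carnitine palmitoyltransferases, 2 fell in WT and 1 in NOS3-TG. Cpt1b, the muscle isoform on the outer membrane that sets the pace of entry, had levels of 5.50, 5.97, 5.93 and 5.99 on the NOS3-TG TAC arrays, against 6.27, 5.72, 6.32 and 6.05 on the NOS3-TG baseline arrays, and 5.94, 5.92, 5.76 and 5.47 on the WT TAC arrays, against 6.55, 6.37, 6.37 and 6.41 on the WT baseline arrays. It fell in WT by 0.66 ± 0.15 (limma adjusted p = 0.00644), while the NOS3-TG groups overlapped and differed by -0.24 ± 0.15 (limma adjusted p = 0.308). Cpt1a, the liver isoform, differed by -0.38 in NOS3-TG, where the groups did not overlap (limma adjusted p = 0.0556), and by -0.27 in WT, where they did (limma adjusted p = 0.107).

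Cpt2, the inner-membrane enzyme that regenerates the acyl-CoA, had levels of 5.35, 6.10, 5.81 and 6.05 on the NOS3-TG TAC arrays, against 6.43, 6.10, 6.58 and 6.42 on the NOS3-TG baseline arrays, and 5.97, 6.11, 5.66 and 5.74 on the WT TAC arrays, against 6.80, 6.67, 6.67 and 6.86 on the WT baseline arrays. The groups were apart in both genotypes, although replicate 2 of NOS3-TG TAC and replicate 2 of NOS3-TG baseline lay next to each other. It fell by 0.56 ± 0.16 in NOS3-TG (limma adjusted p = 0.0382) and by 0.88 ± 0.16 in WT (limma adjusted p = 0.00178). The NOS3-TG call was lost with scan day as a block (adjusted p = 0.124) and with each of 7 arrays left out in turn. Crat, the carnitine acetyltransferase that buffers acetyl-CoA, also fell in both, by 0.63 in NOS3-TG and 0.84 in WT. Of the pair that sets malonyl-CoA, the inhibitor of the outer-membrane transferases, Mlycd, which removes it, fell by 0.73 ± 0.13 in WT (limma adjusted p = 0.00183), and Acacb, which makes it, differed by -0.47 ± 0.18 in WT (limma adjusted p = 0.07). In NOS3-TG neither passed, with -0.35 for Mlycd and -0.27 for Acacb.

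All 4 acyl-CoA dehydrogenases, which take the first electrons from chains of very long, long, medium and short length, fell in WT and none passed in NOS3-TG. Acadm, the medium-chain enzyme, had levels of 7.24, 7.59, 7.41 and 7.57 on the NOS3-TG TAC arrays, against 7.91, 7.48, 8.18 and 7.77 on the NOS3-TG baseline arrays. It had 7.53, 7.67, 7.51 and 7.16 on the WT TAC arrays, against 8.10, 8.16 and 8.25 on 3 WT baseline arrays, its spot being an outlier on WT baseline replicate 2. The WT groups were apart, and NOS3-TG baseline replicate 2 lay among the NOS3-TG TAC arrays. The fall was 0.69 ± 0.16 in WT (limma adjusted p = 0.00696), and the NOS3-TG difference was -0.38 ± 0.15 (limma adjusted p = 0.12). In WT, Acadvl fell by 0.65, Acads by 0.48 and Acadl by 0.31, the last close to the threshold (limma adjusted p = 0.0411). The Acadl call was lost with each of 11 arrays left out in turn (adjusted p of up to 0.119, without WT TAC replicate 4) and with scan day as a block (adjusted p = 0.138). The Acads call was lost with each of 4 arrays left out in turn (adjusted p of up to 0.0674, without WT baseline replicate 4) and with scan day as a block (adjusted p = 0.0808).

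The enzymes of hydration, second oxidation and thiolysis fell in WT without exception, 5 of 5, and 4 of 5 fell in NOS3-TG. Hadh, the medium- and short-chain hydroxyacyl-CoA dehydrogenase, had levels of 4.59, 4.84, 4.81 and 4.69 on the NOS3-TG TAC arrays, against 5.38, 4.96, 5.49 and 5.25 on the NOS3-TG baseline arrays, and 4.77, 4.82, 4.71 and 4.48 on the WT TAC arrays, against 5.50, 5.72, 5.64 and 5.74 on the WT baseline arrays. Every TAC array was below every baseline array. The fall was 0.54 ± 0.12 in NOS3-TG (limma adjusted p = 0.0122) and 0.95 ± 0.12 in WT (limma adjusted p = 0.00024), the smallest adjusted p of any member there. Acaa2, the mitochondrial thiolase, fell by 0.72 ± 0.17 in NOS3-TG (limma adjusted p = 0.0206) and by 1.03 ± 0.17 in WT (limma adjusted p = 0.00132). Echs1, the short-chain hydratase, fell by 0.39 in NOS3-TG and by 0.53 in WT. Its NOS3-TG call was lost with each of 10 arrays left out in turn (adjusted p of up to 0.113) and under 5 other settings (adjusted p of up to 0.197, with normexp).

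Hadha and Hadhb encode the alpha and beta subunits of the mitochondrial trifunctional protein, which carries out these steps on long chains. Hadha had levels of 3.37, 3.87, 3.43 and 3.33 on the NOS3-TG TAC arrays, against 4.31, 3.81, 4.47 and 4.18 on the NOS3-TG baseline arrays, and 3.87, 3.83, 3.64 and 3.39 on the WT TAC arrays, against 4.48, 4.66, 4.67 and 4.84 on the WT baseline arrays. Hadhb had levels of 6.52, 6.88, 6.47 and 6.66 on the NOS3-TG TAC arrays, against 6.96, 6.56, 7.28 and 7.06 on the NOS3-TG baseline arrays, and 6.82, 6.85, 6.78 and 6.60 on the WT TAC arrays, against 7.11, 7.32, 7.32 and 7.49 on the WT baseline arrays. In WT both subunits were lower on all TAC arrays, and in NOS3-TG the groups overlapped for both, at baseline replicate 2.

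Hadha fell by 0.69 ± 0.16 in NOS3-TG (limma adjusted p = 0.0173) and by 0.98 ± 0.16 in WT (limma adjusted p = 0.00116). Hadhb fell by 0.55 ± 0.14 in WT (limma adjusted p = 0.0136) and differed by -0.33 ± 0.14 in NOS3-TG (limma adjusted p = 0.153), and its WT call was lost with scan day as a block (adjusted p = 0.0602). The probes of Hadha disagreed: of 2 further probes, both designed on other cDNA clones, 1 was well above background on no array, and the other, above background on 11 arrays, gave 0.34 ± 0.48 in NOS3-TG and -0.68 ± 0.48 in WT. With the mean of its probes other than the 1 well above background on no array, Hadha was not called in NOS3-TG (adjusted p = 0.725). It was called in WT under that setting (adjusted p = 0.0378).

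These 2 genes lie head to head on chromosome 5, with 272 bases between their RefSeq starts, so the stretch between them is shown as the shared upstream sequence of a pair whose levels were both lower on the WT TAC arrays. It is chr5:30155003-30155252 on the plus strand, which ends at the start of Hadhb, and it is all in lower case because none of the motifs searched is in it.
Hadhb: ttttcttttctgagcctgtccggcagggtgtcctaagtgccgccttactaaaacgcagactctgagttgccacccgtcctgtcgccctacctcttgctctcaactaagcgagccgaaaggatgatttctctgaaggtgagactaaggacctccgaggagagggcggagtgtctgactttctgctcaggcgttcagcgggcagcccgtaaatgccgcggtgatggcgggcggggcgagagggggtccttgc

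The 4 enzymes that unsaturated chains need all fell in WT. Ech1, which isomerises dienoyl-CoA, had levels of 5.63, 6.20, 5.97 and 6.03 on the NOS3-TG TAC arrays, against 6.87, 6.32, 7.10 and 6.73 on the NOS3-TG baseline arrays, and 6.19, 6.28, 6.17 and 5.87 on the WT TAC arrays, against 7.01, 7.26, 7.19 and 7.39 on the WT baseline arrays. All TAC arrays were below all baseline arrays. It fell by 0.80 ± 0.17 in NOS3-TG (limma adjusted p = 0.00962) and by 1.08 ± 0.17 in WT (limma adjusted p = 0.000754). Eci1, an enoyl-CoA isomerase of the mitochondrion, fell in both genotypes, by 0.58 in NOS3-TG and 0.85 in WT. Decr1, the mitochondrial dienoyl-CoA reductase, differed by -0.53 in NOS3-TG, which did not pass, and fell by 1.03 in WT. Eci2, a further isomerase, differed by -0.37 in NOS3-TG, which did not pass either, and fell by 0.63 in WT.

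Of the 3 genes of electron transfer from the dehydrogenases, 1 fell in NOS3-TG and 3 in WT. Etfa and Etfb, the subunits of the electron-transferring flavoprotein, fell in WT by 0.72 ± 0.13 and 0.63 ± 0.12 (limma adjusted p = 0.00201 and 0.00236). Etfdh, the oxidoreductase that passes the electrons to ubiquinone, fell in WT by 0.52 ± 0.17 (limma adjusted p = 0.034), a call lost without WT TAC replicate 4 (adjusted p = 0.114), while a second probe of it gave -0.96 ± 0.16. In NOS3-TG Etfa fell by 0.44 ± 0.13 (limma adjusted p = 0.0468), a call lost with each of 12 arrays left out in turn. Etfb and Etfdh differed there by -0.35 and -0.22 and did not pass.

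The peroxisome shortens very long chains with enzymes of its own, and its 3 members fell in WT. Ehhadh, the peroxisomal bifunctional enzyme, fell by 0.69 ± 0.14 (limma adjusted p = 0.00283), Hsd17b4, the second bifunctional enzyme, by 0.52 ± 0.11 (limma adjusted p = 0.00368), and Acaa1a, the thiolase, by 0.28 ± 0.09 (limma adjusted p = 0.0409). Without WT TAC replicate 4 Acaa1a was not called (adjusted p = 0.135), and its call was lost with each of 9 arrays left out in turn. The call was also lost under 6 other settings (limma adjusted p of up to 0.195, with the mean of all its probes). Its other probes, well above background on all 16 arrays, gave -0.14 ± 0.09 and -0.05 ± 0.11 in WT, so the size depended on the probe. In NOS3-TG none passed, with differences of -0.25 for Ehhadh, -0.30 for Hsd17b4 and -0.16 for Acaa1a.

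The uncoupling proteins are carriers of the inner mitochondrial membrane. Ucp3, the muscle form and a known PPAR target, had levels of -1.82, -1.32, -0.80 and -2.08 on the NOS3-TG TAC arrays, against -0.13, -1.51, 0.57 and -0.38 on the NOS3-TG baseline arrays, and -0.79, -1.01, -1.41 and -0.98 on the WT TAC arrays, against 0.76, 0.12, 0.72 and 1.06 on the WT baseline arrays. The WT groups were far apart, and among the intact NOS3-TG hearts replicate 2 was as low as the TAC arrays. Ucp3 fell by 1.71 ± 0.35 in WT, 3.28-fold, the largest change of any member (limma adjusted p = 0.00397). In NOS3-TG it differed by -1.14 ± 0.35, just short of a call (limma adjusted p = 0.0544).

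Ucp2, the widely expressed form, had levels of -0.56, -0.77, -0.80 and -1.08 on the NOS3-TG TAC arrays, against -0.54, -0.03, -0.44 and -0.23 on the NOS3-TG baseline arrays. The NOS3-TG groups did not overlap, and the difference of -0.50 ± 0.18 did not pass (limma adjusted p = 0.0934). In WT it was -0.04 ± 0.18. Pdk4, the kinase that shuts off pyruvate dehydrogenase when fatty acids are burnt, was among the most variable members, with levels of 3.83, 4.24, 4.96 and 4.25 on the NOS3-TG TAC arrays, 5.82, 4.91, 4.79 and 5.11 on the WT TAC arrays, 4.46, 4.52, 5.13 and 4.72 on the NOS3-TG baseline arrays and 5.33, 4.47, 4.32 and 5.72 on the WT baseline arrays. All of its group comparisons overlapped. It differed by -0.39 ± 0.34 after TAC in NOS3-TG and by 0.20 ± 0.34 in WT, and did not pass in either.

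The Ucp3 stretch is shown because this gene had the largest fall and carries 2 copies of AGGTCA, both on its own strand and not adjacent. It is the 250 bases before the start, chr7:100472741-100472990 on the plus strand in GRCm38.p6, with capitals on the matches. They begin at positions -149 and -44 from the start.
Ucp3: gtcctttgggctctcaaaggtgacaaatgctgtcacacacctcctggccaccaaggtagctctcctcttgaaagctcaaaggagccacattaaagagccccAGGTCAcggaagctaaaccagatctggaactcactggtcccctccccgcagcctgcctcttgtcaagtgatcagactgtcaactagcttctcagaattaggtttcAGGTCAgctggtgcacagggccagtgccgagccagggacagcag

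**Figure D3:**
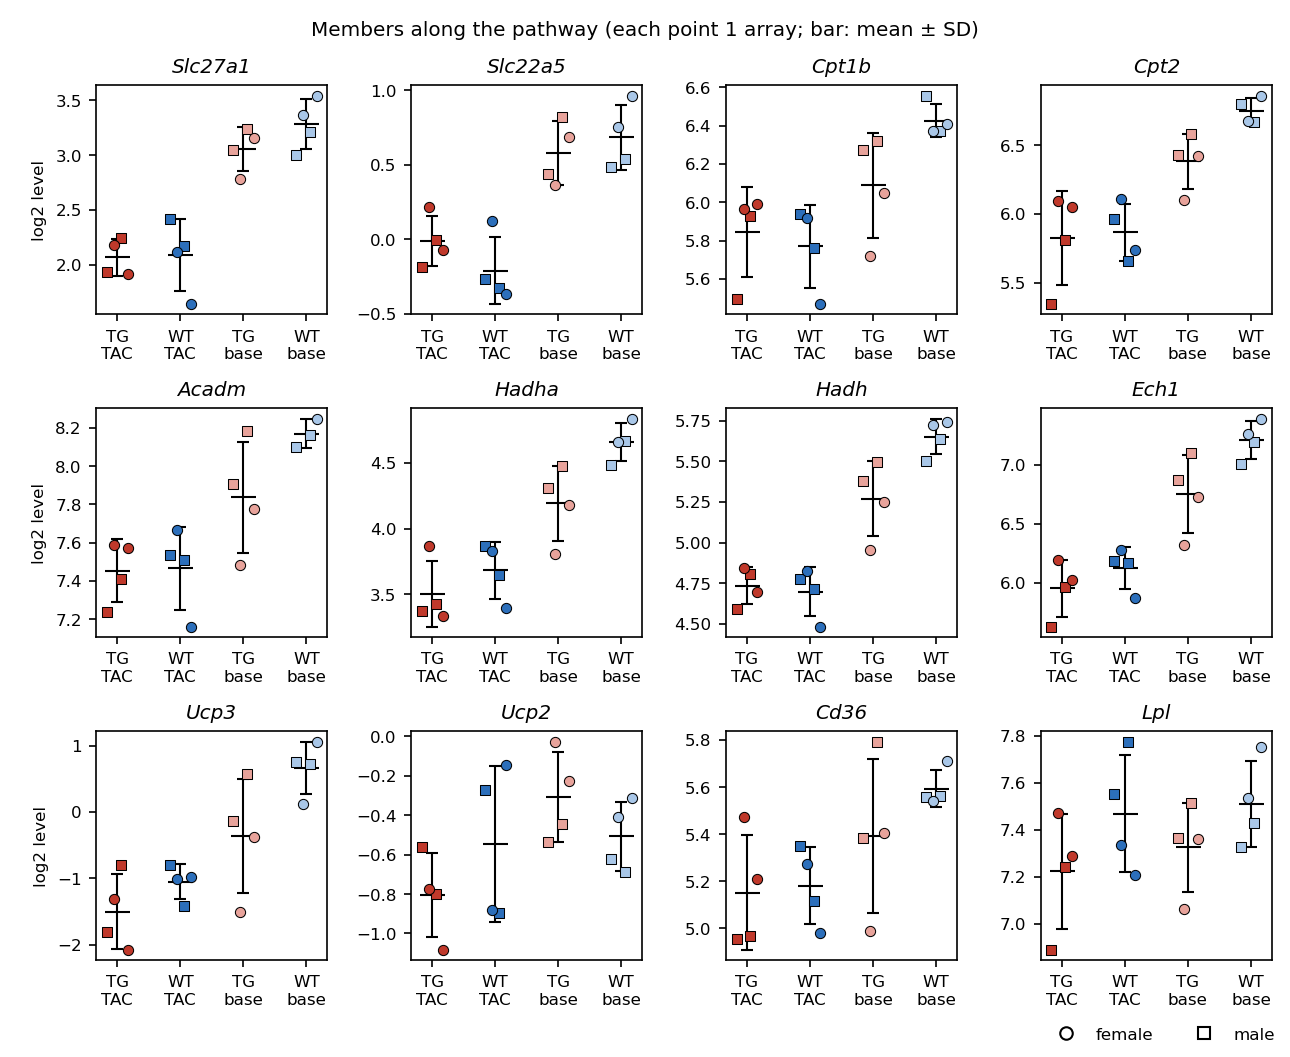
Log2 level relative to the 75th percentile of the array (vertical axes) of 12 members from uptake to the uncoupling proteins on each array of the 4 groups (horizontal axes), circles for females and squares for males, with the mean and SD as bars. Slc27a1, Slc22a5, Hadh and Ech1 are lower on every TAC array than on every baseline array, while Cd36 and Lpl overlap in NOS3-TG.

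The members were also compared array by array. The median difference of the 39 genes from their WT baseline means was -0.79, -0.43, -0.67 and -0.56 on the NOS3-TG TAC arrays and -0.49, -0.46, -0.59 and -0.86 on the WT TAC arrays. It was -0.25, -0.52, -0.02 and -0.24 on the NOS3-TG baseline arrays. The TAC arrays of both genotypes thus covered the same range, while intact NOS3-TG hearts ran from the WT baseline level to that of the TAC arrays. NOS3-TG baseline replicate 2 was the lowest of its group for 35 of 39 genes and NOS3-TG baseline replicate 3 the highest for 34. Among WT TAC arrays replicate 4 was the lowest for 30 genes, and among NOS3-TG TAC arrays replicate 1 was the lowest for 24.

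**Figure D4:**
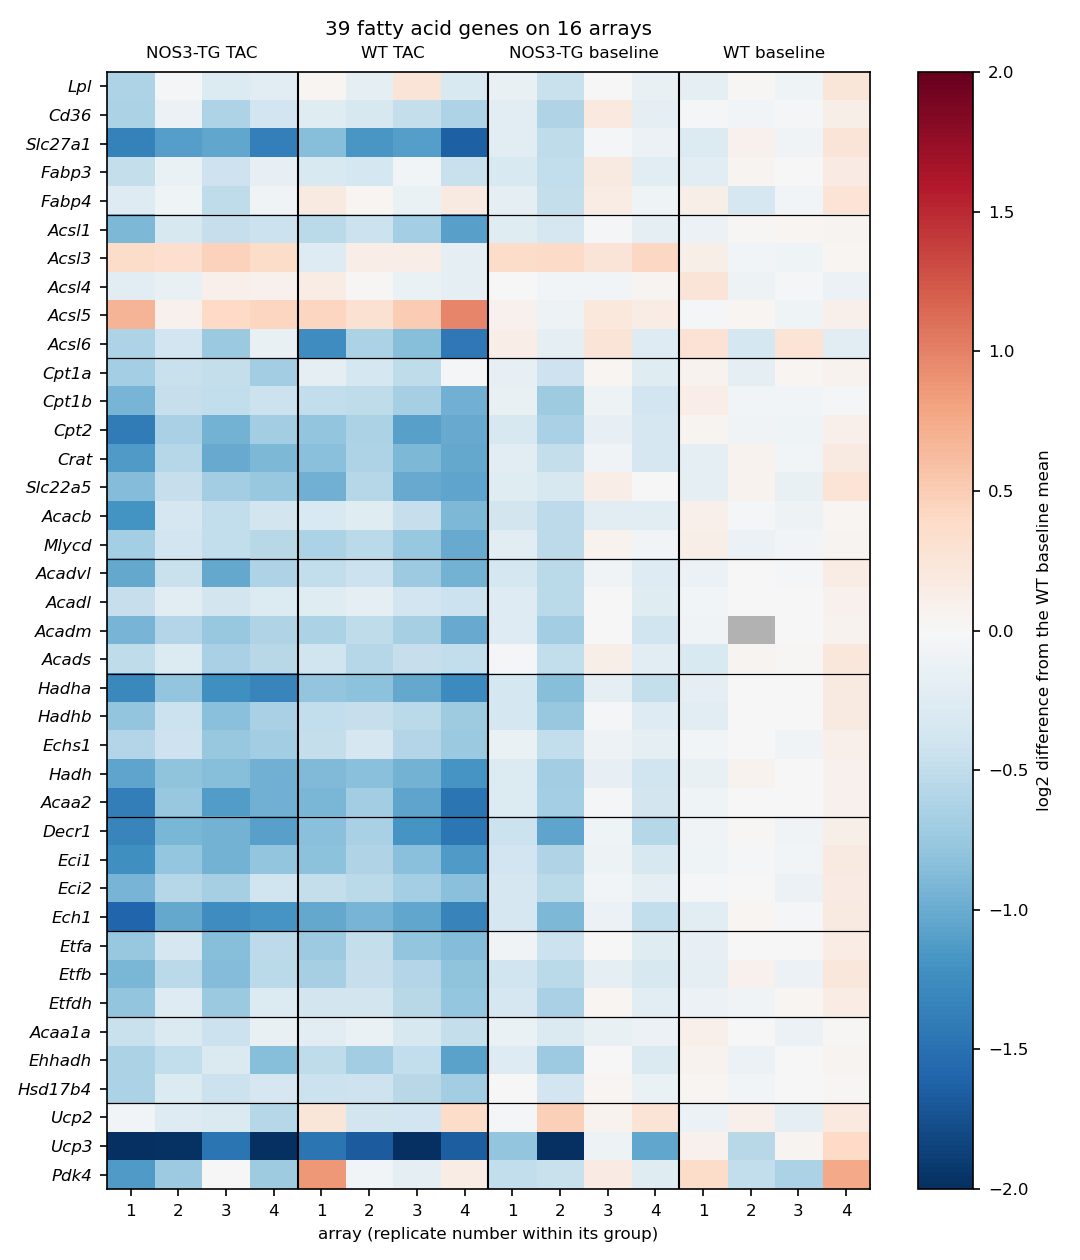
Log2 difference of each member (rows, in the order of the pathway with lines between roles) from its WT baseline mean on each of the 16 arrays (columns), colours ending at -2 and 2 and the missing Acadm spot in grey. The TAC arrays are mostly blue in both genotypes, NOS3-TG baseline replicate 2 is the darkest of the baseline arrays, and Acsl3, Acsl5, Ucp2 and Pdk4 depart from the other rows.

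The falls had much the same order in both genotypes. The change after TAC was below 0 for 37 of 39 genes in NOS3-TG, against 50.2% of all tested genes, and for 36 in WT, against 57.1%. It was below 0 in both for 35, and it lay lower in WT for 33, counts for which no share of all tested genes is given. The median of the NOS3-TG change minus the WT change was 0.24 over the 39 genes, against 0.07 over all tested genes. Across the 39 genes the NOS3-TG and WT changes had a Pearson r of 0.85 and a Spearman rho of 0.80, against a Pearson r of 0.77 over all tested genes; the genes are not independent, and the arrays of both genotypes share slides. The difference between the genotypes in the change itself, the interaction, was called for none of the 39 and for 0% of all genes, and at an unadjusted p under 0.05 for 2 of 39, against 7.45% of all genes. Those were Hadh, at 0.42 ± 0.17 (95% interval 0.06 to 0.78), and Ehhadh, at 0.44 ± 0.19 (95% interval 0.03 to 0.85), with limma adjusted p of 0.663 for Hadh and 0.664 for Ehhadh. The 17 genes called lower in WT only, and Acsl5, called higher in WT only, are therefore not shown to have changed differently in NOS3-TG hearts.

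The number of calls in NOS3-TG hearts rests on single arrays more than in WT. With NOS3-TG baseline replicate 2 left out 22 members were called lower in NOS3-TG, and without NOS3-TG TAC replicate 1 or NOS3-TG baseline replicate 3 only 5. It was 6 without NOS3-TG baseline replicate 1 or NOS3-TG TAC replicate 4, and 7 without NOS3-TG TAC replicate 3. Of the 11 calls in NOS3-TG, Etfa was lost with each of 12 arrays left out in turn, Echs1 with 10, Cpt2 with 7, Acaa2 and Hadha with 4 each, Eci1 with 2 and Slc22a5 with 1, and only Slc27a1 and Ech1 were called with scan day as a block. In WT the count stayed between 24 and 29 with any array left out, and 23 of the 29 called genes were called under every alternative.

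The direct comparison of NOS3-TG with WT called none of the 39 genes, either after TAC, where 0.281% of all tested genes were called, or at baseline, where 0.415% were. At an unadjusted p under 0.05 limma gave 4 members after TAC and 13 at baseline, against 12.3% of all tested genes in each. After TAC the median difference was -0.03, with 28 of 39 genes lower in NOS3-TG, against 48.3% of all tested genes. The direction of that median depended on the processing: it was 0.04 with normexp and 0.04 without NOS3-TG TAC replicate 1, with 13 members changing sign in each, and it was also above 0 without WT TAC replicate 1 (0.01) or WT TAC replicate 2 (0.00353). The largest difference after TAC was in Pdk4 (-0.84 ± 0.34, limma adjusted p = 0.322), with -1.33 on slide 2 and -0.34 on slide 3. At baseline the median was -0.25, against -0.06 over all tested genes, and 36 of 39 genes were lower in NOS3-TG, against 63.8% of all tested genes. At baseline 9 genes were lower in NOS3-TG and 1 higher without overlap of the groups, against 6.07% and 3.89% of all tested genes. The baseline comparison and the WT TAC comparison share the WT baseline arrays.

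Within slides, the median difference between NOS3-TG and WT was -0.36 on slide 1 and -0.17 on slide 4, which hold the baseline arrays, and -0.16 on slide 2 and 0.12 on slide 3, which hold the TAC arrays. Without NOS3-TG baseline replicate 2 the baseline median was -0.15. The largest baseline differences were in Ucp3 (-1.03 ± 0.35, limma adjusted p = 0.263), Decr1 (-0.53 ± 0.20, limma adjusted p = 0.287) and Hadha (-0.47 ± 0.16, limma adjusted p = 0.264). The summed level of 8 macrophage markers at baseline also differed. It was 84.6 to 102 on the NOS3-TG arrays, against 60.1 to 75.1 on the WT arrays. Other lists also had baseline differences. The median difference was -0.26 for 17 tricarboxylic acid cycle genes and -0.15 for 12 cardiomyocyte markers, against -0.06 over all tested genes. It was -0.14 for endothelial, -0.59 for smooth muscle, -0.44 for adipocyte, 0.12 for fibroblast and 0.63 for macrophage markers. The part of these lists in the differences of the members was not tested.

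Acsl3 was on the other side of 0 in both comparisons of the genotypes. It had levels of -1.44, -1.46, -1.35 and -1.43 on the NOS3-TG TAC arrays, against -2.06, -1.67, -1.67 and -1.98 on the WT TAC arrays, and -1.44, -1.41, -1.54 and -1.39 on the NOS3-TG baseline arrays, against -1.69, -1.86, -1.89 and -1.76 on the WT baseline arrays. All 8 NOS3-TG arrays were above all 8 WT arrays (3.6% of all tested genes were higher in NOS3-TG TAC without overlap, and 3.89% in NOS3-TG baseline), and the difference was 0.35, 0.42, 0.43 and 0.36 on slides 1, 2, 3 and 4. It was 0.42 ± 0.09 after TAC (limma adjusted p = 0.078) and 0.35 ± 0.09 at baseline (limma adjusted p = 0.135), so it did not pass in either comparison. Acsl6 differed by 0.56 ± 0.20 after TAC (limma adjusted p = 0.277) and by -0.02 at baseline.

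**Figure D5:**
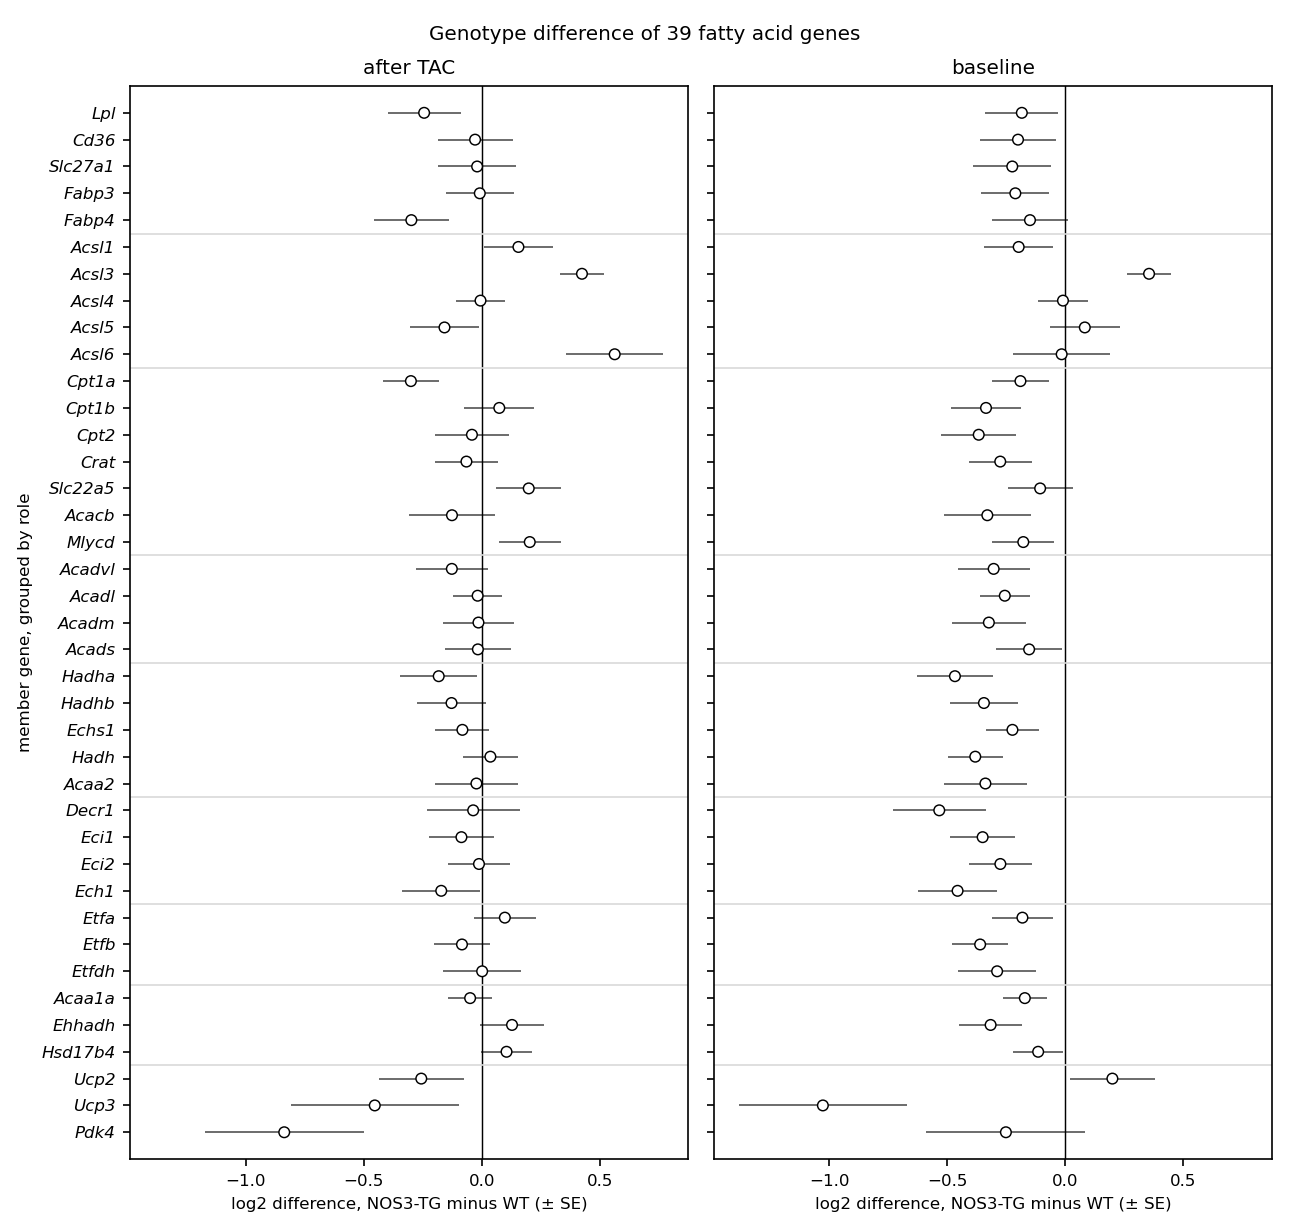
Log2 difference between NOS3-TG and WT hearts (horizontal axis, points with SE bars from limma) of the 39 genes (vertical axis, grouped by role), after TAC on the left and at baseline on the right. All points are white because none was called; at baseline 36 of 39 points lie left of 0, and Acsl3 lies right of 0 in both panels.

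No member was called between females and males over the 4 groups, where 1.33% of all tested genes were, and at an unadjusted p under 0.05 limma gave 15.9% of all tested genes and, of the members, Ehhadh, at -0.26 ± 0.10 as female minus male (limma adjusted p = 0.193, 95% interval -0.47 to -0.06). The median difference of the 39 genes was -0.00702, against 0.01 over all tested genes.

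Of 36 further fatty acid genes that were tested, 5 fell and 1 rose in NOS3-TG, where 5.36% of all tested genes fell and 6.48% rose, and 16 fell and none rose in WT, where 17.6% fell and 10.9% rose. Acsm5, a medium-chain acyl-CoA synthetase of the mitochondrion, fell in both genotypes, with changes of -2.39 ± 0.35 in NOS3-TG (limma adjusted p = 0.00143) and -2.84 ± 0.35 in WT (limma adjusted p = 0.00025). It was dim after TAC, with mean levels of -2.84 in NOS3-TG and -3.38 in WT. Only 3 of 4 WT TAC arrays had it well above background, so the WT size is uncertain. In WT, Slc25a20, the carnitine-acylcarnitine carrier between the transferases, fell by 0.96 ± 0.14 (limma adjusted p = 0.000581). It was also called lower in NOS3-TG, by 0.48 ± 0.14 (limma adjusted p = 0.0435), with mean levels there of 3.35 after TAC and 3.82 at baseline. Acsbg1 was called lower in WT (limma adjusted p = 0.00804), but it was well above background on 1 of 4 WT TAC arrays and on all 4 WT baseline arrays, so no size is given. Abcd2, a peroxisomal fatty acid transporter, was well above background on no WT TAC array and on all WT baseline arrays, and was at least 1.61-fold lower in WT TAC hearts, bounded on each TAC array by the dimmest probe called above background where Abcd2 itself was dimmer (limma adjusted p = 0.000205, mean levels -5.49 after TAC and -3.45 at baseline). In NOS3-TG, Abcd3 fell by 0.54 and Pecr, a peroxisomal reductase, by 0.49, and Slc22a4, the transporter OCTN1, rose by 0.67 ± 0.18 (limma adjusted p = 0.0326). In WT, Abcd3 and Pecr were also called lower, by 0.87 ± 0.13 and 0.73 ± 0.10 (limma adjusted p = 0.000754 and 0.000356). Slc22a4 differed there by 0.33 ± 0.18 and did not pass (limma adjusted p = 0.203). The WT mean levels after TAC and at baseline were 4.38 and 5.25 for Abcd3, 1.51 and 2.23 for Pecr, and 0.257 and -0.068 for Slc22a4.

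Of 21 tested regulators of these genes, 2 fell in NOS3-TG, where 5.36% of all tested genes fell, and 11 in WT, where 17.6% fell, and none rose. In WT the largest falls were in Rxrg, a partner receptor of PPAR (-1.04 ± 0.16, limma adjusted p = 0.00075), Ppargc1a, which encodes PGC-1-alpha (-0.76 ± 0.21, limma adjusted p = 0.0179), Klf15 (-0.74 ± 0.23, limma adjusted p = 0.0263) and Ppargc1b (-0.62 ± 0.16, limma adjusted p = 0.0115). These were not called in NOS3-TG, but their mean levels were lower there too. After TAC and at baseline they were 2.70 and 3.31 for Ppargc1a and 3.03 and 3.64 for Klf15. For Rxrg they were 4.29 and 4.64, and for Ppargc1b 2.52 and 2.82. Ppara, which encodes PPAR-alpha, fell by 0.58 ± 0.17 in NOS3-TG (limma adjusted p = 0.0429) and by 0.58 ± 0.17 in WT (limma adjusted p = 0.0233). The corepressor gene Ncor1 fell by 0.37 ± 0.10 in NOS3-TG (limma adjusted p = 0.0387) and differed by -0.26 ± 0.10 in WT, which did not pass (limma adjusted p = 0.0804). The tricarboxylic acid cycle list held 17 genes, of which 3 fell in NOS3-TG and 15 in WT, and none rose, against the same shares of all tested genes. The largest falls were in Sdha (-0.46) and Sdhc (-0.44) in NOS3-TG, and in Sdhc (-0.79) and Suclg1 (-0.67) in WT.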

How the data were processed

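Per the file headers, the intensity of a spot is its processed signal, background-subtracted and detrended but not yet normalized over arrays, as deposited by the authors. The submitters' processing notes name Agilent Feature Extraction 9.5.1.1. The authors also deposited log2 values for 22057 probes, whose normalization no source used here names; each column followed the log2 processed signal of its array with r of at least 0.9996.

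Control and outlier spots were left out and spots of a probe averaged. Log2 signals were taken relative to the 75th percentile of each array, which lay between 1053 and 1491 signal units. A gene was tested where at least 4 of 16 arrays showed its probe well above background, and its brightest probe on average was used. A RefSeq gene list (GRCm38.p6) gave current names to 22951 of 41174 probes by accession and to 9768 by symbol or synonym; 8455 kept the file's name. Limma 3.58.1 in R 4.3.3 (files were read by data.table, version 1.17.8) fitted 4 group means and sex; figures used matplotlib 3.10.9 in Python 3.11.15. The fit was tested on simulated data. The number of arrays limits the precision, with a median standard error of 0.13 for a log2 difference. The labels describe separate animals, so the spread includes that between mice.

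Results were recomputed with the authors' values, quantile normalization or normexp (offset 50), and without the filter or with it set to 16 arrays. They were also recomputed with the mean of a gene's probes that passed the filter, with array weights or an intensity trend, and without the sex term. Further fits used the compared groups alone, scan day or slide as a block, and each array left out. Added after seeing the data was a fit leaving out the 3 arrays with the most extreme shares above background. The members and gene lists were chosen with earlier results of these data known. All 39 members are named, and from each further list up to 4 called genes by size in each TAC comparison. The promoters come from RefSeq. No source used here names the genome build of the probe positions, so none is printed.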

Additional observations from a re-analysis of the deposited data

Results flagged for a closer look

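In 5 of 155 gene-by-group sets of 4 arrays, a single array stood far from the other 3; chance alone gives about 7.75 such sets. Cpt1b was 5.496 on NOS3-TG TAC replicate 1, with the nearest other array of the group at 5.927. Acaa1a was 5.547 on NOS3-TG baseline replicate 2, with the nearest at 5.698. In the WT baseline group Cd36 was 5.709 on replicate 4 (nearest 5.563), Eci1 was 6.883 on replicate 4 (nearest 6.667) and Cpt1a was 1.085 on replicate 2 (nearest 1.298). These are log2 levels relative to the 75th percentile of the array.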

How the results depend on the processing

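No call reversed under any alternative tried. The count of members called lower after TAC in NOS3-TG, 11 as reported, was 17 with quantile normalization, 19 with the authors' values, 23 with array weights, 4 without the filter, 2 with the compared groups alone (Slc27a1 and Hadh), 2 with scan day as a block (Slc27a1 and Ech1) and 4 without the 3 arrays of extreme shares. With 1 array left out it was 5 to 22. With slide as a random block it was 9. In WT the count of members called lower, 28 as reported, was 24 to 29 with 1 array left out and 23 with scan day as a block; the 1 member called higher was then 0. For NOS3-TG against WT at baseline, array weights called 1 member lower (Hadh, -0.35, adjusted p = 0.0486) and 1 higher (Acsl3, 0.40, adjusted p = 0.0174), against 0 of each as reported. The cause of these shifts was not tested. Quantile normalization moved the median change of the 39 genes after TAC to -0.32 in NOS3-TG and -0.45 in WT. No paired analysis was possible because the replicate numbers only name arrays in accession order and pair no samples; each slide holds both genotypes, and with slide as a fixed block the genotype comparisons also called 0 members. With 4 arrays per group, changes of weakly lowered members cannot be told from the spread between mice.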
